A study of Brassica napus with 27 samples.

Results

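BnaA07g12540D is a gene of oilseed rape (*Brassica napus*) that the deposited table describes as a glucose-6-phosphate 1-epimerase and that carries an aldose epimerase domain (Aldose_epim). It was chosen by its fall at 48 h after both herbicides, and it is 1 of 104573 genes in the table and 1 of 44 with this domain. The files place it (ID GSBRNA2T00081671001) on scaffold LK032618 of chromosome A07, from 149115 to 150865 on the minus strand, with a gene length of 1009 bases. The scaffold coordinates are those of the deposited table, whose genome build is not given in the sources used here.

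Glucose-6-phosphate 1-epimerases interconvert the alpha and beta anomers of glucose 6-phosphate, a role known best from the yeast enzyme. The related aldose 1-epimerases do the same with free sugars such as glucose and galactose. Glucose 6-phosphate stands where glycolysis, the oxidative pentose phosphate pathway and starch synthesis meet in leaf cells. The herbicides of the study, halauxifen-methyl (Hal) and picloram (Pic), are both synthetic auxins that belong to the picolinates.

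Leaves of the cultivar Visby were treated at growth stage BBCH11 in plants kept at 15 °C, 4 plants to a pot, with 12 h of light. The 9 groups of 3 libraries were control, Hal and Pic, each sampled after 2, 48 and 96 h. Control leaves received the solvent (DMSO, Triton X-100 and NaOH) according to the design text, although their treatment label reads "no treatment". The 5 drops carried 0.5 µg Hal or 2.4 µg Pic in all, per plant in the study's methods and per leaf in the treatment protocol, so the doses of the herbicides differed. Replicates were taken from different plant material, all of 1 cultivar, and whether a library pooled several plants is not stated.

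Each library held 15565637 to 19692242 reads in genes (median 16989644), worked back from the values, and 53523 to 60785 genes with at least 1 read. The lowest of these gene numbers was that of Hal 2 h replicate 3, beside 59104 and 59970 in the other libraries of its group. The leaf label fitted the markers, since 58 genes for chlorophyll a-b binding proteins and the Rubisco small subunit summed to 98665 to 198111 FPKM in every library, while 16 seed storage and oil body genes summed to 0 to 1.38 FPKM and 11 of them had 0 reads in all libraries. FPKM scales the fragments of a gene by its length and by a size for the library, so that levels of different genes can be set side by side. Here that size was 0.751 to 1.25 times the total of reads in genes. Values were tested as log2(FPKM + 1) with limma over 46395 genes, and a gene was called at an adjusted p under 0.05 (Benjamini-Hochberg over all genes tested).

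In control leaves the transcript of BnaA07g12540D was abundant and higher at each later time. At 2 h the control libraries held 48.3, 55.3 and 51.5 FPKM, at 48 h 99.5, 77.4 and 90.5 FPKM, and at 96 h 252, 248 and 249 FPKM. The ranges of these groups did not overlap. Between 2 and 96 h the control mean went from 51.7 ± 3.49 to 249.4 ± 2.17 FPKM (SD, n = 3), a 4.82-fold rise and a log2 difference of 2.25 (SE 0.14, limma adjusted p = 6.75e-12). With values scaled to equal totals of reads the log2 difference was 1.79 (limma adjusted p = 8.95e-10). That scaling shifted the median of all genes by -0.29 in this comparison. Of all genes tested, 44.4% were called between these control groups.

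At 2 h the transcript was already higher in treated leaves. The Hal libraries held 75.2, 79.7 and 91.6 FPKM, and the Pic libraries 134, 139 and 123 FPKM. All 3 Hal libraries lay above all 3 controls, and all 3 Pic libraries lay above all 3 Hal libraries. The rise after Hal was 1.59-fold (log2 difference 0.65, SE 0.14, limma adjusted p = 0.00129), where 10.1% of all genes tested were called up. Without Hal 2 h replicate 3, the library with the fewest genes, the log2 difference was 0.57 (limma adjusted p = 0.00961). The rise after Pic was 2.56-fold (log2 difference 1.34, SE 0.14, limma adjusted p = 9.81e-08), where 10.7% of all genes tested were called up. The level after Hal was below that after Pic by 0.68 on the log2 scale (SE 0.14, limma adjusted p = 8.49e-04), at doses that differed. Between the herbicides at 2 h, 20.3% of all genes tested were called. The Hal and Pic comparisons at each time share the same 3 control libraries.

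At 48 h the transcript was almost gone after both herbicides, which is the pattern the gene was chosen by, so the values are given with no test. The Hal libraries held 2.39, 1.44 and 1.62 FPKM, worked back to 47, 26 and 29 reads. The Pic libraries held 0.917, 1.5 and 1.30 FPKM, or 16, 25 and 22 reads, beside 1454, 1078 and 1383 reads in the control libraries. Every treated library lay far below every control library, and the Hal and Pic libraries overlapped each other. The Hal mean of 1.82 ± 0.508 FPKM was 49.1-fold below the control mean of 89.1 ± 11.1 FPKM, and the Pic mean of 1.24 ± 0.296 FPKM was 71.9-fold below it (SD, n = 3). On the log2(FPKM + 1) scale, which understates changes that end at low values, the differences were -5.01 for Hal and -5.33 for Pic. At this time 25.1% of all genes tested were called down after Hal and 17.9% after Pic. Since leaves were measured in bulk, fewer cells that express the gene and less RNA per cell cannot be told apart.

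The gene was not at the bottom of the whole table. By log2 difference it ranked 7th of all genes tested after Hal, just behind BnaC02g46330D at -5.17 and ahead of BnaC02g24950D at -4.98. After Pic it ranked 4th, between BnaA07g18590D at -5.43 and BnaA06g28610D at -5.24. Among genes tested that carry a functional description it stood lowest after both herbicides, and the next gene lay at -3.71 after Hal (BnaC02g17140D) and at -4.23 after Pic (BnaA03g38630D). The gene was chosen by its fall at 48 h, so these ranks and gaps restate the choice and are a description only.

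At 96 h the herbicides differed. The Hal libraries held 9.96, 7.33 and 11.8 FPKM, and the Pic libraries 133, 158 and 127 FPKM, beside 248 to 252 FPKM in the controls. The 3 groups did not overlap at any point, with Hal far below the others and Pic between Hal and control. After Hal the mean of 9.70 ± 2.25 FPKM was 25.7-fold below control (SD, n = 3), a log2 difference of -4.57 (SE 0.14, limma adjusted p = 1.44e-18), where 30.2% of all genes tested were called down. After Pic the mean of 139.5 ± 15.9 FPKM was 1.79-fold below control (SD, n = 3), a log2 difference of -0.84 (SE 0.14, limma adjusted p = 2.64e-05), where 26.4% of all genes tested were called down. When values were scaled to equal totals of reads the Hal difference was -3.95 (limma adjusted p = 5.84e-17) and the Pic difference -0.37 (limma adjusted p = 0.0358), a scaling that raised the median of all genes by 0.41 and 0.29 in these comparisons. The level after Hal was 14.4-fold below that after Pic (log2 difference -3.73, SE 0.14, limma adjusted p = 2.73e-16), and 45.0% of all genes tested were called between the herbicides at 96 h.

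The leaf markers also differed between groups. Their sum at 96 h was 168247 to 189997 FPKM in controls, 98665 to 107691 FPKM after Hal and 115711 to 117542 FPKM after Pic, and the sum of the seed genes was 0 to 0.335, 1.05 to 1.38 and 0.417 to 0.970 FPKM in the same order. At 48 h the leaf sum was 170688 to 198111 FPKM in controls, 133411 to 139806 FPKM after Hal and 154403 to 168452 FPKM after Pic. At 2 h it was 111979 to 120424, 102901 to 108033 and 102269 to 116905 FPKM in the same order. At 48 and 96 h the leaf sum lay below control after both herbicides, as BnaA07g12540D did. At 2 h the sum was not higher after the herbicides, whereas BnaA07g12540D was. The part of the leaf markers in the result was not tested.

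Over time the response to both herbicides turned from higher to lower than control. From 2 to 96 h the Hal response changed by -5.23 on the log2 scale (SE 0.20, limma adjusted p = 3.58e-16), where 46.3% of all genes tested were called. The Pic response changed by -2.18 (SE 0.20, limma adjusted p = 9.09e-09), where 32.6% were called. The order of the 9 group means ran from control 96 h at 249.4 FPKM through Pic 96 h (139.5), Pic 2 h (132.3 ± 7.99), control 48 h (89.1), Hal 2 h (82.1 ± 8.46), control 2 h (51.7) and Hal 96 h (9.70) to Hal 48 h (1.82) and Pic 48 h (1.24). In that order Pic 96 h overlapped Pic 2 h, control 48 h overlapped Hal 2 h, and Hal 48 h overlapped Pic 48 h, while the other neighbouring groups did not overlap.

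**Figure D1:**
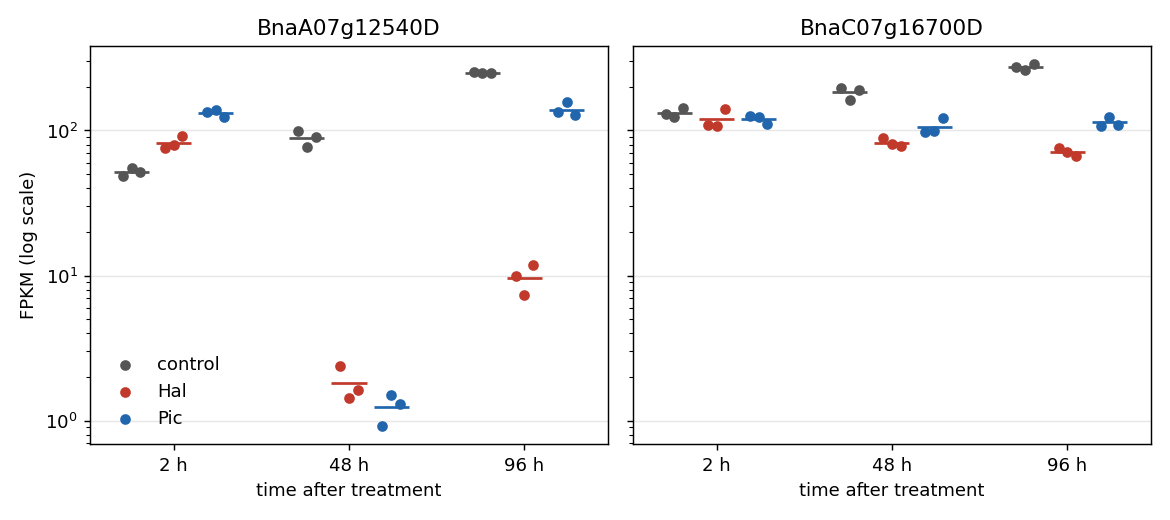
FPKM of BnaA07g12540D (left) and of the C07 gene BnaC07g16700D (right) in each library (points, 3 per group) with the group mean (line), on a log axis against time after treatment. The left panel falls to 0.917 to 2.39 FPKM at 48 h after both herbicides and stands at 127 to 158 FPKM at 96 h after Pic and at 7.33 to 11.8 FPKM after Hal, while no group mean in the right panel is below 71.4 FPKM.

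The Aldose_epim gene with the highest level beside it was BnaC07g16700D (ID GSBRNA2T00046197001), also described as a glucose-6-phosphate 1-epimerase. It lies on scaffold LK032260 of chromosome C07, from 198243 to 200068 on the plus strand, with a gene length of 1041 bases. *Brassica napus* holds an A and a C subgenome, and many of its genes occur as a pair with 1 copy in each. The genes around both loci followed the same order in the direction of transcription. A tRNA-Asn lay directly upstream of each, a GATA gene in position 3 and a Maf gene in position 4 upstream, and a Hexapep gene in position 2 downstream. How reads that match both copies were counted is not stated, so the values of the pair can depend on how such reads were shared.

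The C07 gene did not share the early rise. Its control, Hal and Pic means at 2 h were 131.6 ± 9.30, 119.2 ± 18.9 and 119.7 ± 7.99 FPKM (SD, n = 3), the groups overlapped, and neither herbicide passed the test (log2 difference -0.15 and -0.14, SE 0.10, limma adjusted p = 0.333 and 0.414). At 48 h it was downregulated, from 183 ± 17.9 FPKM in control to 82.6 ± 5.04 after Hal and 106 ± 13.9 after Pic (SD, n = 3). These log2 differences were -1.13 (limma adjusted p = 2.00e-09) and -0.78 (limma adjusted p = 2.14e-06). At 96 h it was lower still in relation to control, with means of 273.7 ± 13.5 FPKM in control, 71.4 ± 4.42 after Hal and 113.5 ± 9.07 after Pic (SD, n = 3). The log2 differences were -1.92 after Hal (limma adjusted p = 6.35e-14) and -1.26 after Pic (limma adjusted p = 5.89e-10). With equal totals of reads they were -1.28 and -0.80, both still called. In control leaves it rose 2.08-fold from 2 to 96 h (log2 difference 1.05, SE 0.10, limma adjusted p = 1.62e-08, and 0.59 with equal totals of reads). Between 48 and 96 h its mean after Pic differed by less than the SDs (106 and 113.5 FPKM), whereas that of the A07 gene was 1.24 and 139.5 FPKM.

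The share of BnaA07g12540D in the summed FPKM of the pair shows the difference within each library, where scaling cancels. It was 28.2% ± 2.32 in control leaves at 2 h, 40.9% ± 1.57 after Hal and 52.5% ± 0.686 after Pic (SD, n = 3). At 48 h the control share was 32.7% ± 0.811, the share after Hal 2.13% ± 0.458 and the share after Pic 1.16% ± 0.290 (SD, n = 3). At 96 h the control share was 47.7% ± 1.19, the share after Hal 12.0% ± 2.80 and the share after Pic 55.1% ± 1.13 (SD, n = 3). After Pic at 96 h the A07 gene therefore took a larger share of the pair than in control, although both genes were below control in FPKM. The log2 ratio of the A07 to the C07 gene was higher than control by 0.82 after Hal and by 1.49 after Pic at 2 h, and differed from control by -2.77 after Hal and by 0.43 after Pic at 96 h. In each of these 4 comparisons the 3 treated and 3 control libraries did not overlap, and the exact permutation test gave p = 0.10 (two-sided, 20 regroupings, n = 3), the smallest it allows, so none passed a threshold of 0.05.

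**Figure D2:**
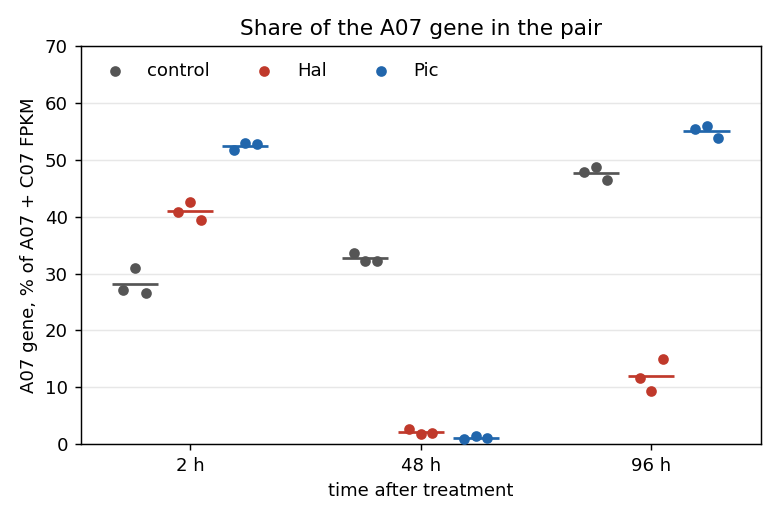
Share of BnaA07g12540D in the summed FPKM of the A07 and C07 genes, in percent, in each library (points) with the group mean (line). The share is 28.2% in control leaves at 2 h and 47.7% at 96 h, near 0 at 48 h after both herbicides (2.13% and 1.16%), and at 96 h it is 12.0% after Hal and 55.1% after Pic.

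Of the other 43 Aldose_epim genes, 25 passed the filter on low values (FPKM of at least 1 in at least 3 libraries), and 18 did not, 9 of them with 0 reads in all libraries. In all, 12 of the 44 genes were described as glucose-6-phosphate 1-epimerases. Levels spanned a wide range, since after the A07 and C07 genes the highest group mean of any other was 36.6 FPKM. At 2 h after Hal, 5 of the 25 were called up and 7 down, where 10.1% of all genes tested were called up and 11.4% down, and the median log2 difference was -0.18 beside 0.00 over all genes tested. At 2 h after Pic the list gave 5 and 5 (10.7% and 9.37% of all genes tested), with a median of -0.15 beside -0.01. At 48 h after Hal it gave 9 and 7 (23.3% and 25.1%), with a median of 0.10 beside 0.01, and after Pic 5 and 7 (13.9% and 17.9%), with a median of -0.09 beside 0.00. At 96 h after Hal it gave 7 and 9 (29.1% and 30.2%), with a median of 0.07 beside 0.01. At 96 h after Pic, 0 were up and 14 down, where 22.2% of all genes tested were called up and 26.4% down, and the median was -0.41 beside -0.01.

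The split of these calls moved with the scaling. With equal totals of reads the numbers up and down were 11 and 4 at 48 h after Hal, 9 and 5 at 48 h after Pic, 15 and 6 at 96 h after Hal, and 7 and 9 at 96 h after Pic. All genes tested shifted the same way, from 10277 up and 12262 down to 19025 up and 5853 down at 96 h after Pic. The median of all genes rose by 0.25 after Hal and 0.14 after Pic at 48 h, by 0.41 after Hal at 96 h, and by 0.01 and 0.02 at 2 h.

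At 48 h the log2 differences of BnaA07g12540D lay outside the range of these 25 genes. That is a description only, since the gene was chosen by its fall at that time. After Hal at 96 h it also lay outside the range of the 25. The lowest of them at 48 h was BnaA01g13390D at -1.14 after Hal and BnaC01g01890D at -1.25 after Pic, and at 96 h after Hal it was the C07 gene at -1.92. At 96 h after Pic the lowest was BnaA01g27130D at -1.48, below the A07 gene. At 2 h after Pic the A07 gene was above the highest of the others, BnaA06g17140D at 1.06, and at 2 h after Hal the same gene at 0.72 was above the A07 gene.

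A pair described as aldose 1-epimerases, BnaA06g17140D and BnaC03g57220D, was among those upregulated early. BnaA06g17140D went from 16.9 ± 0.80 FPKM in control to 28.6 ± 2.25 after Hal and 36.6 ± 4.45 after Pic at 2 h (SD, n = 3), and BnaC03g57220D from 10.8 ± 1.03 to 16.8 ± 2.34 and 23.2 ± 2.34. At 48 h both rose after Hal (log2 difference 0.33 and 0.65) and fell after Pic (-0.66 and -0.75), all 4 called and kept in direction with equal totals of reads. At 96 h both were up after Hal (0.54 and 0.60) and down after Pic (-0.24 and -0.33), and with equal totals of reads these Pic differences were 0.20 and 0.11.

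The genes BnaA01g15080D, BnaC01g17810D and BnaA05g22280D, which carry the domain without a description, also rose at 2 h after both herbicides, by 0.59 and 0.84, by 0.51 and 0.84, and by 0.56 and 0.52 on the log2 scale. BnaC01g17810D showed the highest log2 difference of the list at 48 h after both herbicides. It went from 1.51 ± 0.123 FPKM in control to 10.1 ± 0.289 after Hal and 4.17 ± 0.172 after Pic (SD, n = 3). Its log2 difference was 2.14 after Hal and 1.04 after Pic, and at 96 h it was 0.76 after Hal and -0.81 after Pic, all called. BnaA01g15080D was called up after Hal at 48 h (0.90) and had the highest log2 difference of the list after Hal at 96 h (1.00). BnaA05g22280D was called up after Hal at 48 h (0.67) and at 96 h (0.41).

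Another group was downregulated at 2 h. BnaA01g13390D, a glucose-6-phosphate 1-epimerase, and BnaC01g15540D fell by 0.58 and 0.76 after Hal and by 0.52 and 0.59 after Pic on the log2 scale, and BnaA07g38160D, with the same description as BnaA01g13390D, fell by 0.73 and 0.70. The last was also called down after Pic at 48 h (-0.71) and at 96 h (-0.43). BnaA01g13390D was below control after Hal at 48 h (7.32 ± 0.743 against 17.5 ± 3.97 FPKM in control) and at 96 h after both (12.8 ± 1.62 and 14.1 ± 1.88 against 27.4 ± 2.76 FPKM, SD, n = 3). BnaC01g15540D was called down at 96 h after both as well (-0.88 after Hal and -1.03 after Pic).

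At 96 h the genes BnaA01g27130D, BnaC01g34580D, BnaC03g06530D, BnaC01g01890D and BnaC03g12990D were below control after both herbicides. Their log2 differences ran from -1.70 (BnaC01g01890D) to -0.84 (BnaC03g12990D) after Hal and from -1.48 (BnaA01g27130D) to -0.94 (BnaC01g01890D) after Pic, all called. Of these, BnaC01g01890D had the highest r with the A07 gene among the 25 (0.68 over the 27 libraries), and the C07 gene came next (0.68). It fell after Pic at 48 h, from 4.56 ± 0.553 to 1.34 ± 0.258 FPKM, and went up to 2.89 ± 0.316 FPKM at 96 h, where control stood at 6.47 ± 0.525 FPKM (SD, n = 3).

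The remaining genes of the list were low or nearly level. BnaA10g11380D, BnaC09g32880D, BnaA03g10320D and BnaA03g27400D were called in none of the 6 comparisons with control, and the first of these, described as a glucose-6-phosphate 1-epimerase, ranged over group means from 6.07 to 8.13 FPKM. BnaC05g35520D was called up at 48 h after both (0.70 and 0.36) and at 96 h after Hal (0.94), and BnaC07g38460D only at 96 h after Hal (0.54). BnaC06g42870D fell at 2 h after Hal (-0.69) and was up at 48 h after both (0.95 and 0.68). BnaC03g32420D (-0.50 at 2 h after Hal) and BnaA03g46210D were up at 48 h after both herbicides, by 0.32 and 0.67 and by 0.47 and 0.66 on the log2 scale, and BnaA03g46210D was down at 96 h after Pic (-0.48). BnaA03g04930D was down at 48 and 96 h after both, from -0.35 to -0.47, and BnaC02g11600D, with at most 1.13 FPKM in a group, was called in none.

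**Figure D3:**
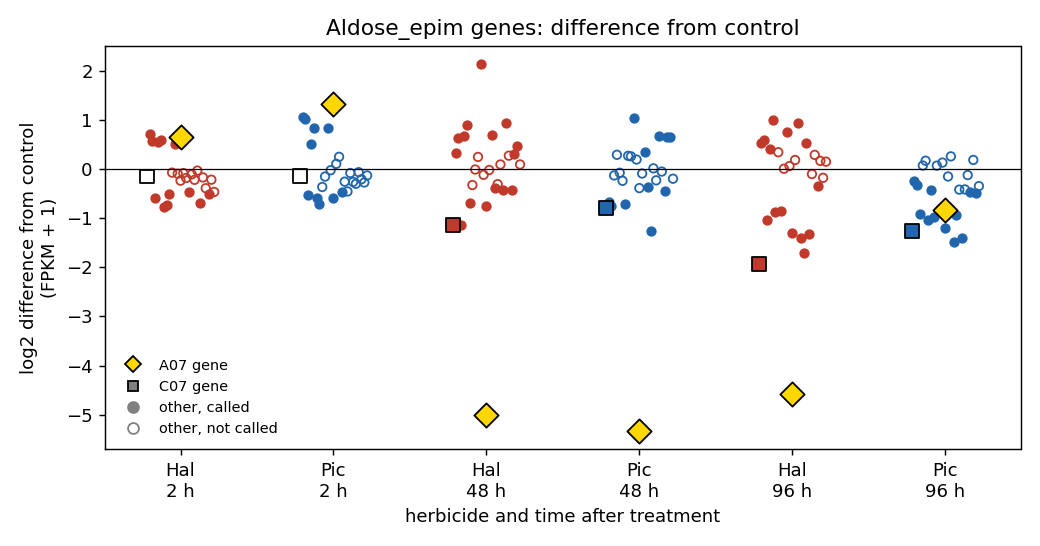
Log2 difference from control, on log2(FPKM + 1), of BnaA07g12540D (diamond), the C07 gene (square) and the other 24 Aldose_epim genes tested (circles, filled where called at an adjusted p under 0.05) for each herbicide and time; the diamonds at 48 h are a description, since the gene was chosen by them. The diamond stands at -5.01 and -5.33 at 48 h and at -4.57 at 96 h after Hal, where no other gene of the list is below -1.92, and within the list at 96 h after Pic (-0.84).

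Beside the epimerases, 4 genes of other enzymes close to glucose 6-phosphate were read, all of which passed the filter. They are no full account of these enzymes. Glucose-6-phosphate isomerases, which convert glucose 6-phosphate to fructose 6-phosphate for glycolysis, make up 3 of them (BnaA03g46830D, BnaA09g16190D and BnaA01g13990D), and the other is BnaA01g20810D, a probable 6-phosphogluconolactonase of the oxidative pentose phosphate pathway. After Hal, 0 passed upwards and 1 downwards at 2 h, where 10.1% of all genes tested were called up and 11.4% down, 0 and 3 at 48 h (23.3% and 25.1%), and 0 and 3 at 96 h (29.1% and 30.2%). After Pic the numbers were 1 and 1 at 2 h (10.7% and 9.37%), 1 and 0 at 48 h (13.9% and 17.9%), and 0 and 3 at 96 h (22.2% and 26.4%). The medians of the 4 were 0.12, -0.72 and -1.19 after Hal and -0.08, -0.15 and -0.62 after Pic in the order of time, beside -0.01 to 0.01 over all genes tested. With equal totals of reads 1 in place of 3 was called at 96 h after Pic, and without control 48 h replicate 1 the genes called at 48 h after Pic numbered 2 in place of 1.

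All 3 isomerases were downregulated at 48 and 96 h after Hal. The most abundant, BnaA03g46830D, held 56.4 ± 4.52 FPKM in control at 96 h, 22.3 ± 3.77 after Hal and 36.2 ± 4.51 after Pic (SD, n = 3), with log2 differences of -1.31 (limma adjusted p = 1.77e-08) and -0.63 (limma adjusted p = 6.83e-04). BnaA09g16190D held 22.4 ± 1.03, 10.1 ± 0.696 and 14.5 ± 1.60 FPKM in the same order (SD, n = 3), with log2 differences of -1.08 (limma adjusted p = 6.23e-10) and -0.61 (limma adjusted p = 1.32e-05). With equal totals of reads these Pic differences were -0.17 and -0.16 and were no longer called. BnaA01g13990D was lowest after Hal, with 2.28 ± 0.161 FPKM against 7.66 ± 0.656 in control (SD, n = 3; log2 difference -1.40, SE 0.13, limma adjusted p = 2.43e-09), and after Pic it held 6.01 ± 0.654 FPKM (log2 difference -0.31, limma adjusted p = 0.0617).

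At 2 h BnaA01g13990D was below control after both herbicides (log2 difference -1.17 after Hal and -0.92 after Pic, both called), BnaA09g16190D was up after Pic (0.50), and BnaA03g46830D was not called. At 48 h the lowest log2 difference of the list was that of BnaA09g16190D after Hal at -0.91, beside -5.01 for BnaA07g12540D. After Pic it was that of BnaA01g13990D at -0.25, not called, beside -5.33. Since BnaA07g12540D was chosen by its values at 48 h, these gaps are a description only. The lactonase gene BnaA01g20810D was up at 48 h after Pic (log2 difference 0.68) and down at 96 h after Pic, at 0.380 ± 0.0783 against 1.40 ± 0.390 FPKM in control (SD, n = 3; log2 difference -0.79, SE 0.16, limma adjusted p = 1.88e-04).

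Along the scaffold, which holds 51 genes, the 10 genes on each side of BnaA07g12540D were read with no test, and 8 of these 20 passed the filter. The nearest expressed gene downstream was BnaA07g12560D, a Hexapep gene whose start lies 9.26 kb away. At 48 h it held 12.0 ± 1.36 FPKM in control, 9.93 ± 0.766 after Hal and 8.45 ± 0.754 after Pic (SD, n = 3). On the upstream side BnaA07g12530D, described as the nucleolar protein MPP10, was low at 48 h, at 0.255, 0.0526 and 0.143 FPKM. These means rest on 18, 5 and 12 reads over the libraries of each group. Its means in the same order were 0.485, 1.53 and 0.684 FPKM at 2 h and 0.394, 0.0774 and 0.768 FPKM at 96 h. BnaA07g12510D, a Maf gene, held 3.21 ± 0.0552, 2.44 ± 0.179 and 2.28 ± 0.198 FPKM at 48 h.

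Further downstream, 3 of the 8 were lower by at least 1 on the log2 scale after both herbicides at 48 h. They are named after their values were seen, except BnaA07g12580D, the second expressed gene on that side. BnaA07g12580D, 14.9 kb away, went from 3.32 ± 0.563 to 0.586 ± 0.0507 after Hal and 0.635 ± 0.248 FPKM after Pic (SD, n = 3). BnaA07g12590D, 17.9 kb away, went from 2.66 ± 0.377 to 0.641 ± 0.182 and 0.788 ± 0.218 FPKM. BnaA07g12610D, 28.1 kb away, went from 90 reads over 3 control libraries to 0 in all 6 treated libraries. The directly adjacent BnaA07g12550D, too low to be tested, had 16 reads over the control libraries and 0 after both herbicides. Over all genes tested, 1.95% were lower by at least 1 after both herbicides at 48 h.

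At 96 h, BnaA07g12580D, BnaA07g12590D and BnaA07g12610D held 0.904, 0.798 and 0.370 FPKM after Hal and 4.39, 3.13 and 1.65 FPKM after Pic, beside 2.86, 2.59 and 2.44 FPKM in control. The means after Hal were the lowest of the 3 groups for each gene. After Pic the means of BnaA07g12580D and BnaA07g12590D were above control, with log2 differences of 0.49 and 0.19, whereas the A07 gene was at -0.84. At 2 h the means of all 3 were above control after both herbicides, as was that of the A07 gene. The log2 differences after Hal and Pic were 1.42 and 1.06 (BnaA07g12580D), 0.22 and 0.20 (BnaA07g12590D), and 0.23 and 0.54 (BnaA07g12610D). These 3 genes lie on either strand, and BnaA07g12560D lies between them and the A07 gene. On the C07 scaffold the genes in positions 4 to 7 downstream were at 0 to 12.0 FPKM in control at 48 h. The highest of those, BnaC07g16750D, held 12.0 FPKM in control, 5.79 after Hal and 8.82 after Pic.

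**Figure D4:**
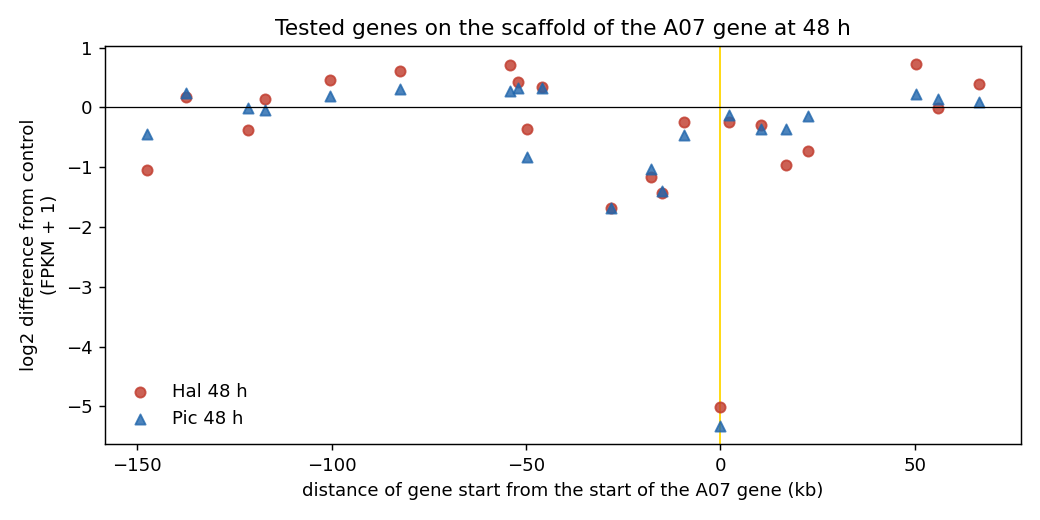
Log2 difference from control at 48 h, on log2(FPKM + 1), of the 22 tested genes on the scaffold of BnaA07g12540D after Hal (circles) and Pic (triangles) against the distance of their start from that of BnaA07g12540D in kb; negative distances are downstream of the gene in its direction of transcription. BnaA07g12540D stands at -5.01 and -5.33, 3 genes at 14.9 to 28.1 kb downstream lie between -1.69 and -1.03, and the medians of the other 21 genes are -0.24 after Hal and -0.04 after Pic.

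Genes with the most similar profile were sought among 5556 genes whose 9 group means spanned at least 2 on the log2 scale. The A07 gene itself spanned 6.81, and 8 genes tested spanned more. The 10 highest r over the 27 libraries, which share their groups, ran from 0.94 to 0.91, and 17 genes reached 0.9. They were BnaC06g26740D (0.94), BnaA04g15900D (0.94), BnaC06g25310D (0.94), BnaC07g47930D (0.93), BnaAnng17430D (0.93), BnaC02g43850D (0.93), BnaC06g28490D (0.93), BnaC02g01270D (0.93), BnaC02g03430D (0.91) and BnaCnng67460D (0.91). With r taken over the 9 group means, 9 of these 10 stayed among the highest 10. The libraries at 48 h, by which the A07 gene was chosen, entered r, so a fall there was part of how these genes were picked.

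Most of these genes have no description. BnaA04g15900D is described as a ribosomal protein, BnaC02g03430D carries the domain of ribosomal protein S12, BnaC02g43850D an RNA-binding domain (RRM_1) and BnaCnng67460D a sugar transporter domain (Sugar_tr). The nearest in profile, BnaC06g26740D, went at 48 h from 35.1 ± 4.76 FPKM in control to 9.32 ± 1.20 after Hal and 7.25 ± 2.71 after Pic. At 96 h it stood at 53.7 ± 7.32, 13.6 ± 1.38 and 35.5 ± 2.91 FPKM in the order control, Hal and Pic (SD, n = 3). At 2 h it held 41.7 ± 2.58, 54.8 ± 4.62 and 37.2 ± 4.78 FPKM, so it did not share the early rise after Pic. Of the 10 genes, BnaC06g25310D and BnaC07g47930D also had means below control at 2 h after Pic, and the rest were above. BnaCnng67460D was at 0 FPKM in all 6 treated libraries at 48 h, beside 3.68 ± 1.72 FPKM in control.

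The 3 lowest r were those of BnaCnng58100D, described as histone H3 (-0.92), BnaA07g24720D with a zinc finger domain, zf-CCCH (-0.91), and BnaC02g43640D (-0.89). BnaA07g24720D held 18.5 ± 3.58 FPKM in control at 48 h, 38.2 ± 0.990 after Hal and 63.3 ± 3.66 after Pic (SD, n = 3). The C07 gene, with r = 0.68, spanned 1.92 and so was outside the genes searched.

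**Figure D5:**
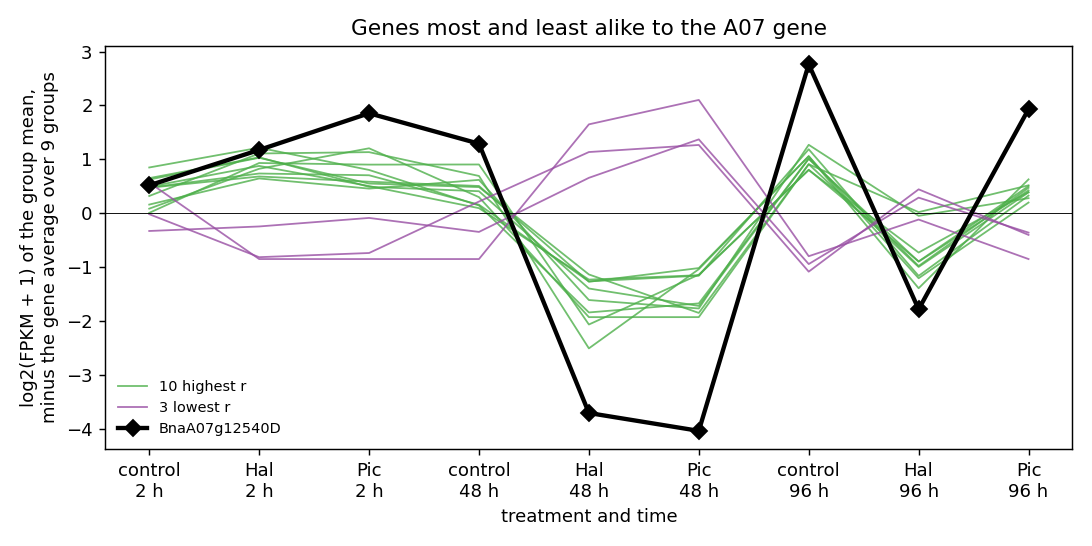
Log2(FPKM + 1) of the 9 group means, each minus the average of its gene over the groups, for BnaA07g12540D (black), the 10 genes with the highest r over the 27 libraries (green) and the 3 with the lowest (purple). The green genes dip with the black line at 48 h after both herbicides and at 96 h after Hal, by less than the black line, whose 9 group means span 6.81, and the purple genes are highest at 48 h after the herbicides. Both sets were picked by r over these same libraries, so these courses follow from the choice.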

How the data were processed

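The authors deposited 1 table of FPKM values for 104573 genes in 27 libraries, with gene names, descriptions, domains and scaffold positions. The labels name CASAVA, HISAT2, StringTie, DESeq2, edgeR and GATK, without versions, as the tools of the authors' processing, and the genome build is not given in the sources used here. Multiplied by gene length, 100% of the values of each library were whole multiples of a step (tolerance 0.01 reads), which gave the reads behind them. The number that the FPKM values were divided by was 0.751 to 1.25 times the total of reads, so scaling to equal totals was an alternative. Since FPKM values are not counts, limma 3.58.1 in R 4.3.3 was fitted to log2(FPKM + 1) of the 27 libraries in 9 groups, with a trend in the variance, over the 46395 genes that reached 1 FPKM in 3 or more libraries. P-values are two-sided and were adjusted (Benjamini-Hochberg) within each comparison. They rest on the spread between libraries within groups, which came from different plant material. For each gene that spread is an estimate shared by all 9 groups and moderated over all genes tested. It is not the spread of the compared groups alone. The precision at low levels is set by the reads given. The fit was tested on simulated data first.

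Genes named are BnaA07g12540D, the Aldose_epim genes, the 10 genes with the highest and the 3 with the lowest r, the 2 nearest expressed genes on each side, and the glucose phosphate list. Others are said to be chosen after their values were seen. The rule took from that list only the genes with the largest and smallest called change at 96 h. The list was first wider, and some of its genes are not reported here for a reason unrelated to their values. The 4 left are described as glucose-6-phosphate isomerase or 6-phosphogluconolactonase, and since they are few, all are named. The gene and all lists were chosen with earlier results of these data known. Alternatives were a pseudocount of 0.1, no filter, an FPKM of at least 5, equal totals of reads, fits of only the compared libraries, replicate as a block, limma voom on the reads, and leaving out each library. The reference table matched 0 of the gene IDs and was not used, and no sequences are given.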

Additional observations from a re-analysis of the deposited data

Results flagged for a closer look

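The response of BnaA07g12540D differed between 2 and 96 h for both herbicides, by a test of the difference itself. After Hal it changed by -5.23 on the log2 scale, from 0.65 at 2 h to -4.57 at 96 h (limma adjusted p = 3.58e-16), and all 3 Hal libraries lay above control at 2 h and below it at 96 h. After Pic it changed by -2.18, from 1.34 to -0.84 (limma adjusted p = 9.09e-09), again with all 3 libraries above control at 2 h and below it at 96 h. In control leaves the gene rose over the same time, so that each response is measured against a moving level. Groups of 3 libraries were not searched for outlying samples.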

How the results depend on the processing

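For BnaA07g12540D, 162 of 168 alternative values kept their direction, their side of the threshold and, at 48 h, lay within the spread between replicates, and 0 changed sign. The other 6 were the values at 48 h, which were -4.67 (Hal) and -5.09 (Pic) with equal totals of reads, -5.61 and -6.16 with limma voom on the reads, and -5.57 and -6.08 with a pseudocount of 0.1. The highest adjusted p over all alternatives was 0.00961 for Hal and 9.30e-05 for Pic at 2 h, and 3.64e-07 for Hal and 0.0358 for Pic at 96 h. Leaving out 1 library gave 0.57 to 0.72 and 1.29 to 1.39 at 2 h, -5.15 to -4.91 and -5.43 to -5.22 at 48 h, and -4.71 to -4.40 and -0.93 to -0.78 at 96 h for Hal and Pic. Counts of called Aldose_epim genes stayed within 1.5 times in 78 of 78 alternatives. In the glucose phosphate list the number called was 1 in place of 3 at 96 h after Pic with equal totals of reads, and 1 to 2 at 48 h after Pic with 1 library left out (2 without control 48 h replicate 1, beside 1). With an FPKM of at least 5, which tests fewer genes, it was 0 in place of 1 at 48 h after Pic, and the other 75 of 78 counts lay within 1.5 times. Over all genes this filter gave 14156 calls in place of 22486 at 48 h and 16115 in place of 27515 at 96 h after Hal, and 14081 in place of 22539 at 96 h after Pic. Libraries with the same replicate number did not deviate together (r of residuals -0.21 to 0.11 over 27 pairs, 1 over 0.1). A fit with replicate as a block left the log2 differences as they were, gave limma adjusted p = 0.00578 for Hal at 2 h and 2.55e-04 for Pic at 96 h, and it changed no call of the gene and moved no count of calls by over 1.5 times. Depth limits the values at 48 h, which rest on 16 to 47 reads a library.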

Other observations

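Genes with a like course were counted by limits chosen after seeing the data. The limits follow the values of BnaA07g12540D itself, so the counts do not measure how rare its course is. Of 9367 genes tested with at least 10 FPKM in control leaves at 48 h, 19 were at or under 0.1 of control after both herbicides at that time. BnaA07g12540D was the 1 Aldose_epim gene among them. At 96 h, 10 of the 19 were at or above 0.5 of control after Pic, and BnaA07g12540D was the 1 gene of these 10 that was also at or under 0.1 of control after Hal. The 10 include BnaA07g18580D, BnaA07g18590D and BnaC05g48850D, at 0, 0.0519 and 0.482 FPKM in control at 96 h. For these a ratio to control says little. Also among the 10 is BnaC06g36590D, a GDSL lipase gene, at 20.3 FPKM in control, 3.72 after Hal and 18.0 after Pic at 96 h. BnaC05g48850D, with a peptidyl-prolyl isomerase domain, stood at 17.7, 0.273 and 0.483 FPKM at 48 h in the order control, Hal and Pic. At 96 h it stood at 0.482, 0.233 and 13.1 FPKM in that order.

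Of the 19 genes, 8 share a scaffold with another of the list, on 4 scaffolds. BnaA07g18580D, a gene with a SET domain, and BnaA07g18590D went from 30.0 and 42.0 FPKM in control to 0 or nearly 0 at 48 h after both herbicides, and at 96 h both were near 0 in control and at 28.9 and 34.5 FPKM after Hal. No test was made of these values.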
